A study of Arabidopsis thaliana with 12 samples.

Results

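The genes described here were the nuclear genes whose transcripts stood furthest above the flower bud in the leaf of Arabidopsis rootstocks. They were chosen on the rootstock arrays alone, as the 200 probe sets with the largest mean of 3 rootstock leaf arrays minus mean of 3 rootstock flower bud arrays, out of 22746 plant probe sets. Of these 200, 6 belonged to the plastid genome and 1 to PR5, and these 7 were left out, which left 193 members. BG3 and at5g03350, which the rule also bars, stood at places 349 and 15936 and did not reach the first 200. A single gene was paired with 131 of the 193 members, 8 matched several genes, and 54 carried no gene name here, so that their genome of origin could not be checked. Of the 131 single genes, 85 were named by the array annotation and 46 only by tables of the study, which had picked its genes on these samples. The rule value ran from 6.90 down, with a median of 4.47 over the members, and it was 3.847 at the last place inside the limit and 3.845 at the first place outside.

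All 12 arrays came from Columbia-0 (Col-0) plants that had been homografted, meaning that the cut primary inflorescence stem was set back on the plant it came from. The scion was the part above the graft junction and the rootstock the part below it. Unopened flower buds and young leaves that emerged on side branches after grafting gave 4 groups of 3 arrays, namely scion leaf, scion flower bud, rootstock leaf and rootstock flower bud. All groups therefore carried the wild-type genotype and a graft, and no ungrafted plant was measured. The labels number the arrays of a group from 1 to 3 without saying which plant each came from, so p-values measure the spread between these samples.

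A young leaf and a flower bud share most of their housekeeping genes, and both contain green cells with chloroplasts. A leaf also keeps a large set of inducible genes for defence against microbes and chewing insects. Jasmonate, made from chloroplast lipids, drives wound and insect responses, and salicylic acid drives responses to biotrophic pathogens. In Arabidopsis and its relatives glucosinolates, sulfur-rich compounds stored in leaf tissue, add a chemical defence.

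The values are log2 expression centred so that every probe set has a median of 0 across the 12 arrays, and a value is a distance from that midpoint and not a level. The leaf and bud labels were checked on genes outside the 193. Of 11 flower organ and anther genes, 7 were paired with a probe set under a single gene name. Of these 7, 6 were lower in scion leaf than in scion flower bud. The median of the 7 lay between -2.95 and -2.22 on the 3 scion leaf arrays and between 2.22 and 2.63 on the 3 scion flower bud arrays. On the 3 rootstock leaf arrays that median lay lower, between -4.53 and -4.13. SEP4 was the 1 flower gene that did not pass, with a log2 difference of 1.04 (SE 0.33, adjusted p = 0.0681).

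The leaf-enriched genes of the rootstock also had higher means in leaf than in bud on the scion, whose arrays had no part in choosing them. All 193 members had a positive difference of scion leaf minus scion flower bud, with a median of 3.28 log2 units and a range from 1.02 to 5.56, while the median over all 22746 probe sets was 0.06. The difference was at least 2-fold in all 193, at least 4-fold in 182 and at least 8-fold in 122. Shares over all probe sets were not counted for the sign or for these fold limits, so these counts have no base beside them. In the limma test across all probe sets, which called differences of 2-fold or more whose adjusted p did not exceed 0.05, 102 of 193 members were called higher in scion leaf and 0 lower, and 172 had an unadjusted p of at most 0.05, as had 8891 of all probe sets (39.1%). Over all probe sets 5.81% were called higher and 9.47% lower. The lowest scion leaf array stood above the highest scion flower bud array in 133 members, against 22.0% of all probe sets. The 91 members that were not called had differences from 1.02 to 5.16 with a median of 2.91, and their standard error had a median of 1.09. In the 102 called members the difference had a median of 3.56 and the standard error one of 0.69, against a standard error of 0.20 over all probe sets.

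The call depended on single arrays. Without scion leaf array 3, 180 members were called higher (10.6% of all probe sets), with a median difference of 4.08 and a median standard error of 0.54. In a fit over all 12 arrays, which shares the spread with the rootstock arrays, 154 were called (7.91%). That fit took the 12 arrays as independent, although same-numbered scion and rootstock leaf arrays deviated together, with correlations of 0.342, 0.714 and 0.816. Without scion leaf array 1 the count was 30 (2.39%), without scion flower bud array 2 it was 39 (2.80%) and without scion flower bud array 3 it was 37 (2.64%). A one-way analysis of variance, the kind of test named in the methods, called 28 (2.49%) when run here on scion leaf against scion flower bud. The study itself reported scion against rootstock differences. With limma's array weights, whose estimate did not converge, 192 were called (11.8%). Each of the 102 called members was called again without scion leaf array 3, and 29 members were called in the test and in all 6 fits that left out an array.

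**Figure D1:**
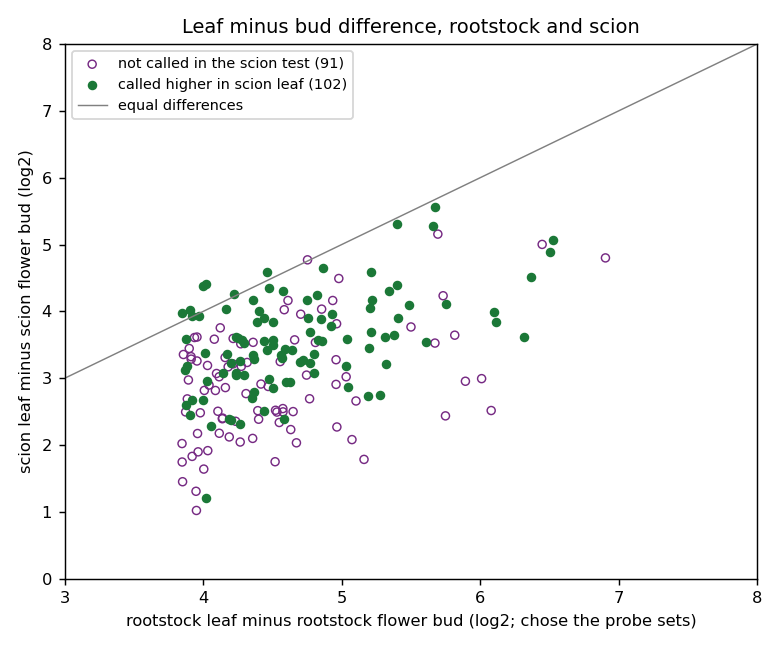
Each point is 1 of the 193 members, with the rootstock leaf minus rootstock flower bud difference that chose it on the x axis (log2) and the scion leaf minus scion flower bud difference on the y axis (log2), filled where the scion difference was called. All points lie above 0 on the y axis and 185 lie below the line of equal differences.

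The order of the members on the scion differed from that on the rootstock. The scion difference was smaller than the rootstock difference in 185 members, a shift that the choice of the largest rootstock values itself favours. Of the 193 probe sets with the largest scion differences, 117 were members, and 173 of the 193 members were among the first 500 and 188 among the first 1000, the last standing at place 2347. Across the members the rootstock and scion differences gave a correlation of 0.47 (Pearson) and of 0.41 (Spearman), while over all 22746 probe sets these were 0.93 and 0.89. The rule kept only rootstock differences from 3.85 to 6.90, and a narrow range by itself lowers a correlation. The member values therefore cannot be compared with those over all probe sets. All these values describe probe sets read on the same 12 arrays and are no test.

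The members did not lie evenly across the 3 arrays of a group. Their median value was 2.38 and 3.03 on scion leaf arrays 1 and 2 and 0.31 on scion leaf array 3. On the scion flower bud arrays it was -0.29 on array 1, and -1.83 and -1.59 on arrays 2 and 3. Scion leaf array 3 was thus the low leaf array and scion flower bud array 1 the high bud array. Scion leaf array 3 was the lowest scion leaf in 175 members (30.8% of all probe sets), and scion flower bud array 1 was the highest scion bud in 175 (29.93% of all probe sets). Of the 60 members in which leaf and bud overlapped, 56 had scion leaf array 3 at or below scion flower bud array 1. Scion leaf arrays 1 and 2 stood above all 3 scion bud arrays in 188 members, and scion leaf array 3 stood above scion bud arrays 2 and 3 in 185. For the 188 and the 185 no share over all probe sets was counted. The midpoint of 12 values often falls between the lowest leaf and the highest bud array, so that the values of these 2 arrays were often equal with opposite sign.

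Markers outside the members were read on the same arrays. The median of the 7 flower genes was -2.67, -2.95 and -2.22 on scion leaf arrays 1, 2 and 3 and 2.22, 2.46 and 2.63 on scion bud arrays 1, 2 and 3. Gene by gene, scion leaf array 3 was the highest scion leaf in 5 of the 7, while scion bud array 1 was the lowest scion bud in 3 and the highest in 3. The median of 8 genes for light harvesting and electron transport was 0.59, 0.30 and 0.58 on the scion leaf arrays and -0.30, -0.51 and -0.43 on the scion bud arrays, so that scion leaf array 3 was level with array 1 there. The part of these markers in the member values was not tested.

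**Figure D2:**
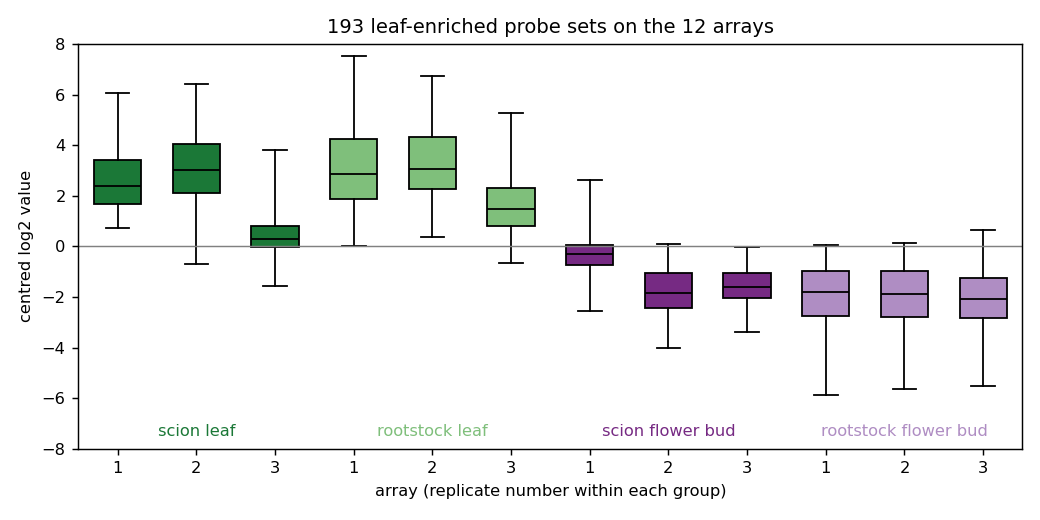
Centred log2 values of the 193 members on each of the 12 arrays (boxes, quartiles with the median as a line; whiskers, lowest and highest member), coloured by group. Scion leaf array 3 has a median of 0.31 against 2.38 and 3.03 on the other scion leaf arrays, and scion flower bud array 1 a median of -0.29 against -1.83 and -1.59.

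Rootstock leaf array 3 was low for the same kind of member. The medians of the rootstock leaf arrays were 2.88, 3.07 and 1.49, and array 3 was the lowest in 151 members. The gap between array 3 and the mean of arrays 1 and 2 had a median of -2.36 on the scion, with a range from -6.17 to 2.55, and of -1.40 on the rootstock. A gap of at least 2 log2 units below the other leaf arrays was present in 116 members on the scion (3.03% of all probe sets) and in 70 on the rootstock. For the rootstock counts of 151 and 70 no share over all probe sets was counted. Across the members the gaps on scion and rootstock correlated at 0.82 by Pearson and 0.82 by Spearman, and over all probe sets at 0.82 and 0.72. These correlations describe probe sets and carry no p. By the study's methods, scion and rootstock organs were collected together from 3 chosen grafted plants, but the labels do not say whether the 2 leaf samples numbered 3 came from 1 plant.

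**Figure D3:**
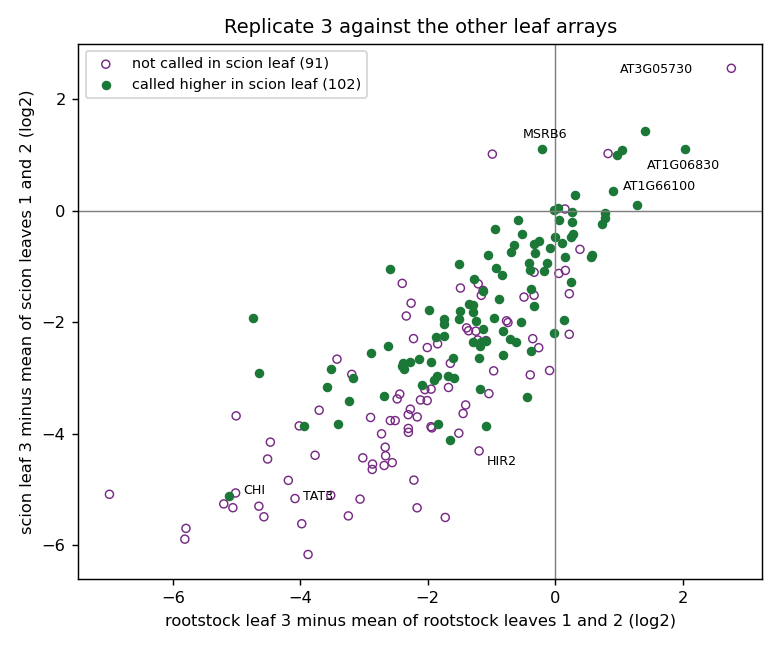
Each point is 1 of the 193 members, with leaf array 3 minus the mean of leaf arrays 1 and 2 on the rootstock (x axis, log2) and on the scion (y axis, log2), filled where the scion leaf minus bud difference was called. Most points lie below and left of 0, and a small set around at1g66100, MSRB6 and at1g06830 lies above 0 on the scion.

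Because the samples are bulk tissue, fewer cells of a type and less RNA per cell cannot be told apart in any of these differences. The function of the members was read from general knowledge of Arabidopsis genes after the members were known, and 70 of the 131 single genes were placed in 8 groups. All the counts of calls by group below therefore describe chosen sets and carry no test of the set. Group counts of calls are read beside the 102 of all 193 members called higher (5.81% of all probe sets). Group counts without overlap are read beside 133 of all 193 members (22.0% of all probe sets). Group counts without scion leaf array 3 are read beside the 180 of all 193 members called there (10.6% of all probe sets). That count was lower for 2 of the groups, with 2 of 4 members in glucosinolate synthesis and 4 of 6 among transcription factors. It was 8 of 8 for glutaredoxins and redox enzymes and 8 of 8 for transport and primary metabolism. The member count fell to 30 without scion leaf array 1, and to 39 and 37 without scion flower bud arrays 2 and 3. Group counts for those fits are not given.

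**Figure D4:**
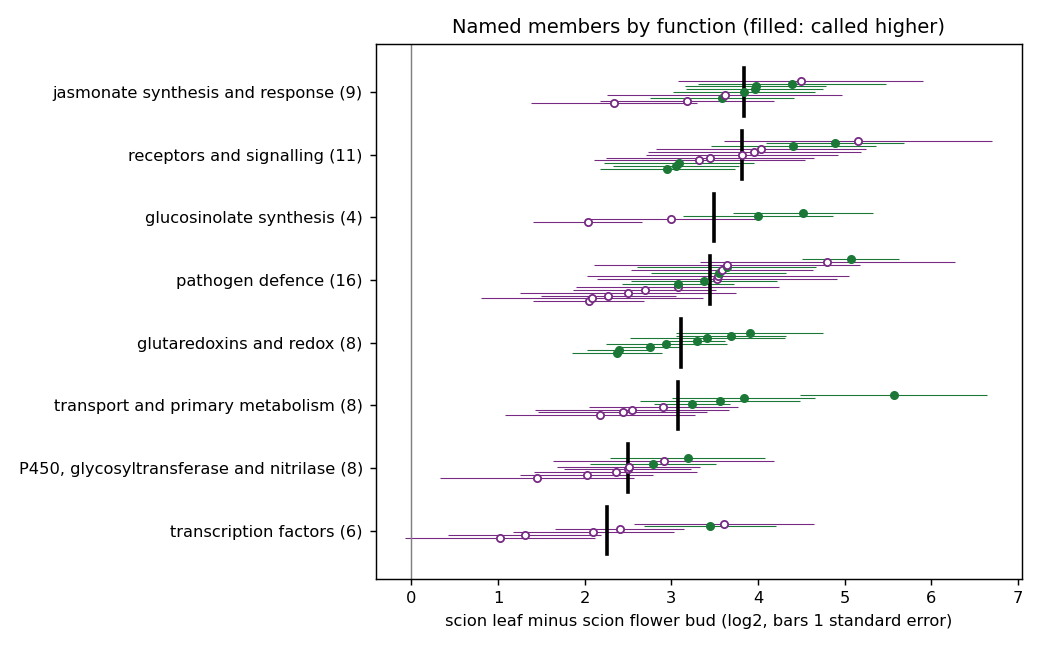
Scion leaf minus scion flower bud difference (x axis, log2, bars 1 standard error) of the 70 members with a function group, filled where called higher, with the group median as a vertical line. Group medians run from 2.25 for transcription factors to 3.83 for jasmonate genes, and the group of glutaredoxins and redox enzymes is filled throughout.

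All 8 members placed in the group of glutaredoxins and other redox enzymes were called higher in scion leaf, with differences from 2.38 to 3.90 and a median of 3.12, and in all 8 the scion leaf arrays stood above the scion bud arrays. GRX480, a further glutaredoxin among the members, was placed with pathogen defence and was not called (limma adjusted p = 0.0554). The gap of scion leaf array 3 had a median of -0.44 in the redox group, against -2.36 over all members. MSRB6 (at4g04840), a methionine sulfoxide reductase that repairs oxidized methionine, read 1.19, 0.72 and 2.06 on scion leaf arrays 1, 2 and 3 and -1.25, -1.43 and -1.61 on scion bud arrays 1, 2 and 3. Here array 3 was the highest scion leaf, and the difference was 2.75 (SE 0.34, adjusted p = 0.00488). The rootstock leaf arrays of MSRB6 stood higher again, at 4.19, 4.41 and 4.09, which is part of the values that chose it. The other redox enzymes were GPX7 (at4g31870), a glutathione peroxidase, with a difference of 3.90 (SE 0.85, adjusted p = 0.0225), and NDA1 (at1g07180), an alternative NADH dehydrogenase of the mitochondrial membrane, with 2.40 (SE 0.37, adjusted p = 0.00846).

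The remaining 5 redox members were small glutaredoxins, thiol proteins of a plant family that binds TGA transcription factors. For at1g06830 the scion leaf arrays read 1.59, 1.19 and 2.49 and the scion bud arrays -1.52, -1.60 and -1.49, and array 3 was again the highest leaf. Its difference was 3.29 (SE 0.33, adjusted p = 0.00269). The glutaredoxin at2g47880 differed by 3.69 (SE 0.64, adjusted p = 0.0114), and at5g18600 by 2.38 (SE 0.52, adjusted p = 0.023). The neighbouring loci at3g62950 and at3g62960 differed by 2.94 (SE 0.70) and 3.42 (SE 0.89), both called. Whether probe sets of such close copies read each other's transcripts was not tested.

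Glucosinolate synthesis had 4 members, of which 2 were called higher, with a median difference of 3.49. BCAT4 (at3g19710) and MAM1 (at5g23010) carry out the first steps of methionine chain elongation, which builds the aliphatic side chain. BCAT4 read 2.77, 3.86 and 0.96 on the scion leaf arrays and -0.96, -2.54 and -2.47 on the scion bud arrays, without overlap. MAM1 read 2.02, 3.01 and 0.55 and -0.55, -2.96 and -2.90, also without overlap. Both were higher in scion leaf, BCAT4 by 4.52 (SE 0.81, adjusted p = 0.0125) and MAM1 by 4.00 (SE 0.87, adjusted p = 0.0224).

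Later steps of the pathway were less even. The 2-oxoglutarate-dependent dioxygenase at2g25450 read 1.83, 2.17 and 0.69 on the scion leaf arrays and 0.83, -2.73 and -2.39 on the scion bud arrays, so that scion bud array 1 stood above scion leaf array 3. Its difference of 2.99 (SE 0.99, adjusted p = 0.0746) was not called. The rootstock bud arrays of this gene read -5.87, -5.63 and -5.52, below all 3 scion bud arrays. IGMT4 (at1g21130), a methyltransferase of indole glucosinolates, had 2.03 (SE 0.63, adjusted p = 0.0639). Of 33 genes on a separate glucosinolate and myrosinase list, 7 were paired with a probe set under a single gene name. Of these 7, 5 were called higher, namely BCAT4, MAM1, IPMI1, UGT74B1 and SOT18, and 0 lower. This list does not hold at2g25450 and IGMT4, which were not called.

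Jasmonate genes had the largest median difference of the 8 groups, 3.83 over 9 members, and 5 of the 9 were called higher. Leaf and bud did not overlap on the scion in 8 of the 9. Scion leaf array 3 lay below the other scion leaves by 2.55 to 5.16 log2 units in these genes. Without that array all 9 were called, as were 180 of all 193 members.

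LOX3 (at1g17420), a lipoxygenase at the start of jasmonate synthesis, read 3.15, 3.66 and 0.62 on the scion leaf arrays and -0.62, -1.71 and -1.76 on the scion bud arrays. AOS (at5g42650), the allene oxide synthase of the next step, read 3.23, 4.01 and 0.66 and -0.66, -0.86 and -1.32. In both genes array 3 was the low leaf and leaf still stood above bud. The difference was 3.83 (SE 0.82, adjusted p = 0.0215) for LOX3 and 3.58 (SE 0.84, adjusted p = 0.0278) for AOS. Turnover enzymes of the hormone were higher in leaf as well. CYP94C1 (at2g27690), which oxidizes the active conjugate of jasmonate, differed by 3.96 (SE 0.79, adjusted p = 0.0174). The jasmonate hydroxylases at5g05600 and at2g38240 differed by 4.39 (SE 1.08) and 3.97 (SE 0.81), both called.

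The other 4 jasmonate genes were not called. TAT3 (at2g24850), a tyrosine aminotransferase induced by jasmonate, read 4.80, 5.60 and 0.04 on the scion leaf arrays and -0.92, -0.67 and -1.44 on the scion bud arrays. Its scion leaf array 3 was near the midpoint and far below the other leaves, and the difference was 4.49 (SE 1.41, adjusted p = 0.0664). JRG21 (at3g55970), a further hydroxylase, had 3.62 (SE 1.35, adjusted p = 0.104), and it was the 1 jasmonate gene with overlap between leaf and bud. JAZ8 (at1g30135), a repressor of jasmonate signalling, had 3.18 (SE 1.00, adjusted p = 0.0665). PDF1.2 (at5g44420), a defensin induced by jasmonate with ethylene, read 2.17, 3.87 and -0.19 on the scion leaf arrays and -0.34, -0.39 and -0.44 on the scion bud arrays, with a difference of 2.34 (SE 0.95, adjusted p = 0.126).

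A separate jasmonate and wounding list also holds genes of the pathway that were not chosen. Of its 22 genes, 8 were paired with a probe set under a single gene name, 3 of them members. Of these 8, 1 was called higher (AOS) and 1 lower. The list lacks LOX3, CYP94C1, at5g05600 and at2g38240, all called higher, so its counts do not describe the whole pathway. AOC4, an allene oxide cyclase, was lower in scion leaf by a log2 difference of -1.92 (SE 0.15, adjusted p = 0.00139). THI2.1, a thionin, had -3.49 (SE 1.29, adjusted p = 0.0996). OPR3, the reductase that follows, had 1.63 (SE 0.62, adjusted p = 0.108).

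Pathogen defence was the most frequent group, with 16 members, differences from 2.05 to 5.07 and a median of 3.45. Of the 16, 5 were called higher, beside 102 of all 193 members. Without scion leaf array 3, 15 were called, as were 180 of all 193 members. Leaf and bud did not overlap on the scion in 9 of the 16, beside 133 of all 193 members. The thionin-like peptide gene at1g66100 had the largest difference among them. It read 3.62, 1.70 and 3.65 on the scion leaf arrays and -1.70, -2.41 and -2.13 on the scion bud arrays, so that array 2, not array 3, was the low leaf. The same array was low on the rootstock, where the leaf arrays read 4.39, 2.93 and 4.63. The scion difference was 5.07 (SE 0.56, adjusted p = 0.00335), and it stayed called in all 6 fits that left out an array.

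HIR2 (at3g01290), a membrane protein of the hypersensitive-induced family, held the first place of the rule with a rootstock difference of 6.90. On the scion it read 4.00, 4.36 and -0.13 in leaf and 0.13, -3.46 and -2.84 in bud, with scion leaf array 3 below scion bud array 1. The difference of 4.80 (SE 1.47, adjusted p = 0.0613) was not called. The rootstock leaf arrays of HIR2 read 4.40, 4.08 and 3.05, where array 3 was again the lowest. LURP1 (at2g14560), required for resistance to an oomycete, read 3.31, 4.20 and -0.81 in scion leaf and 0.81, -2.48 and -2.57 in scion bud, and its difference was 3.64 (SE 1.54, adjusted p = 0.135). In LURP1 as in HIR2 the overlap came from scion leaf array 3 and scion bud array 1.

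Salicylic acid genes made up a part of this group. ACD6 (at4g14400), an ankyrin-repeat membrane protein that promotes salicylic acid defence, read 2.27, 2.21 and 0.43 on the scion leaf arrays and -0.43, -2.04 and -1.85 on the scion bud arrays, without overlap, and was higher by 3.07 (SE 0.65, adjusted p = 0.0205). PCC1 (at3g22231), a small protein induced by pathogens, was higher by 3.64 (SE 1.03, adjusted p = 0.0498). GRX480 (at1g28480), a glutaredoxin that links salicylic acid to jasmonate signalling, had 3.58 (SE 1.05, adjusted p = 0.0554). UGT74F2 (at2g43820), which attaches glucose to salicylic acid, had 2.05 (SE 0.64, adjusted p = 0.0645). Of 19 genes on a separate list for this hormone, 5 were paired with a probe set under a single gene name, and 4 of these were members. Of the 5, 3 were called higher, namely ACD6, PCC1 and SAG101. UGT74F2 is not on this list.

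Secreted and cell-death proteins completed the defence group. PR4 (at3g04720), a chitin-binding protein, read 2.55, 3.12 and -1.14 in scion leaf and 1.10, -1.10 and -1.71 in scion bud, with scion leaf array 3 at the level of the lower buds, and its difference was 2.08 (SE 1.28, adjusted p = 0.274). CHI (at2g43570), a chitinase-like protein, read 4.59, 5.36 and -0.09 in scion leaf and 1.31, -1.14 and -0.91 in scion bud. Its rootstock leaf arrays read 5.42, 4.79 and 0.09, so that array 3 was the low leaf on both parts of the graft. The midpoint of this gene lies between the array 3 values of -0.09 and 0.09, so their equal size with opposite sign comes from the centring. The CHI difference was 3.54 (SE 1.51, adjusted p = 0.139). The defensin-like at3g05730 showed the opposite order, with 3.23, -0.71 and 3.82 on the scion leaf arrays and 4.57, 0.43 and 5.27 on the rootstock leaf arrays, where array 2 was the low one. Its scion difference was 3.07 (SE 1.17, adjusted p = 0.107). PLA2A (at2g26560), a patatin-like lipase, had 3.53 (SE 1.38, adjusted p = 0.114), and ANK (at5g54610), an ankyrin-repeat protein, had 2.50 (SE 1.25, adjusted p = 0.192). NHL1 (at3g11660) and HR4 (at3g50480), a homolog of a powdery mildew resistance protein, were called higher, with 3.55 (SE 0.78) and 3.38 (SE 0.84). RING1 (at5g10380), a ubiquitin ligase, and the lectin-like at3g16530 had 2.69 (SE 0.82) and 2.27 (SE 0.78), neither called.

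Receptors and signalling proteins had a median difference of 3.82 over 11 members, and 5 were called higher. All 11 were called without scion leaf array 3, as were 180 of all 193 members. That array was low by 2.43 to 5.17 log2 units in this group. CRK4 (at3g45860), a cysteine-rich receptor-like kinase of the cell surface, read 3.95, 4.30 and 1.29 on the scion leaf arrays and -1.29, -1.81 and -2.02 on the scion bud arrays, without overlap. It was higher in leaf by 4.89 (SE 0.79, adjusted p = 0.00963). Its relative CRK6 (at4g23140) read 4.76, 5.74 and 0.08 and -0.08, -2.55 and -2.27, with scion leaf array 3 just above scion bud array 1, and the larger difference of 5.16 (SE 1.54, adjusted p = 0.0579) was not called. A further relative, CRK40 (at4g04570), was higher by 3.05 (SE 0.73, adjusted p = 0.0295). The names of CRK4, CRK6 and CRK40 came only from tables of the study. Whether probe sets of such relatives read each other's transcripts was not tested. Calcium sensing was represented by at1g21550, an EF-hand protein, which read 4.34, 5.02 and 1.26 in scion leaf and -0.51, -1.06 and -1.05 in scion bud. It was higher by 4.41 (SE 0.95, adjusted p = 0.0219), and it was among 8 members whose scion difference exceeded the rootstock difference.

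RLP23 (at2g32680), a receptor-like protein that senses a microbial peptide, read 4.22, 4.41 and 0.31 on the scion leaf arrays and -0.31, -1.22 and -0.98 on the scion bud arrays. The groups did not overlap, and the difference of 3.81 (SE 1.10, adjusted p = 0.0527) was just outside the limit on adjusted p. PSK4 (at3g49780), a precursor of the peptide hormone phytosulfokine, read 2.68, 3.48 and -0.10 and 0.16, -3.25 and -2.72, with overlap, and had 3.96 (SE 1.22, adjusted p = 0.0632). GLR2.7 (at2g29120), a glutamate receptor-like ion channel, had 3.44 (SE 1.21, adjusted p = 0.0872). The kinases at1g76360 and at1g51805 were called higher, with 3.08 (SE 0.86) and 2.96 (SE 0.78), while the kinase at1g35710 and the EF-hand protein at3g47480 had 4.03 (SE 1.21) and 3.32 (SE 1.22) and were not called.

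Transport and primary metabolism held the largest scion difference of all single-gene members. The proline dehydrogenase at5g38710, which starts the breakdown of proline in mitochondria, read 4.58, 5.56 and 1.25 on the scion leaf arrays and -1.25, -2.19 and -1.86 on the scion bud arrays. Every leaf array was above every bud array, array 3 was the low leaf, and the difference was 5.56 (SE 1.08, adjusted p = 0.016). In this group of 8, 4 members were called higher. NCED4 (at4g19170), which cleaves carotenoids, read 1.79, 2.21 and 0.55 and -0.55, -3.33 and -3.07 and was higher by 3.84 (SE 0.82, adjusted p = 0.0219). ATBFRUCT1 (at3g13790), a cell-wall invertase that splits sucrose, was higher by 3.56 (SE 0.92, adjusted p = 0.0386). TIP2;2 (at4g17340), an aquaporin of the vacuole membrane, read 1.72, 1.77 and 0.91 and -0.91, -2.44 and -1.95 and was higher by 3.23 (SE 0.44, adjusted p = 0.00598).

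Sugar and amino acid carriers were not called. MSS1 (at5g26340), a hexose transporter, read 2.48, 3.06 and -0.52 in scion leaf and 0.96, -1.74 and -0.73 in scion bud, with scion bud array 1 above scion leaf array 3, and had 2.18 (SE 1.10, adjusted p = 0.197). SFP1 (at5g27350), a sugar transporter of the same superfamily, and LHT1 (at5g40780), an amino acid transporter, had 2.91 (SE 0.86) and 2.55 (SE 1.11). PPDK (at4g15530), which makes phosphoenolpyruvate from pyruvate, had 2.44 (SE 0.97).

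Cytochrome P450 enzymes and related modifying enzymes had smaller scion differences, with a median of 2.50 over 8 members, and 2 were called higher. The called members were CYP71B24 (at3g26230), with 3.19 (SE 0.90, adjusted p = 0.0493), and NIT4 (at5g22300), a nitrilase that detoxifies cyanide products, with 2.79 (SE 0.73, adjusted p = 0.0395). Without scion leaf array 3 all 8 were called, as were 180 of all 193 members. Overlap between leaf and bud on the scion was present in 6 of the 8. CYP71B23 (at3g26210) read 3.19, 3.14 and -0.73 on the scion leaf arrays and 0.73, -2.18 and -1.69 on the scion bud arrays, and had 2.91 (SE 1.28, adjusted p = 0.147). The glucosyltransferase UGT87A2 (at2g30140) read 2.34, 3.11 and -0.99 and 1.17, -0.56 and -0.51, and had 1.45 (SE 1.12, adjusted p = 0.373). In both genes scion leaf array 3 lay below scion bud array 1, and in UGT87A2 below all 3 scion buds. CYP71B3, CYP71B4, CYP72A8 and CYP89A9, the last of which acts on chlorophyll breakdown products, had differences of 2.36, 2.51, 2.49 and 2.02, and none was called.

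Transcription factors had the smallest median of the 8 groups, 2.25 over 6 members, and MYB59 was the 1 that was called. MYB59 (at5g59780), an R2R3-MYB factor linked to growth and nutrient responses, read 2.25, 3.22 and 0.49 on the scion leaf arrays and -0.49, -1.87 and -2.02 on the scion bud arrays. Leaf and bud did not overlap, and the difference was 3.45 (SE 0.76, adjusted p = 0.0238). ERF2 (at5g47220), an activator of jasmonate and ethylene defence genes, read 3.12, 3.78 and -0.04 and -0.37, -2.11 and -1.49 and had 3.61 (SE 1.04, adjusted p = 0.0522). RAV2 (at1g68840), a repressor of flowering, had 2.40 (SE 0.74, adjusted p = 0.0635), and RD26 (at4g27410), a NAC factor of drought and senescence, had 2.10 (SE 0.93, adjusted p = 0.15).

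RAP2.6 and MEE3 stood at the low end. RAP2.6 (at1g43160), an ERF factor of stress and wounding, read 0.94, 2.23 and -0.74 in scion leaf and 1.80, -1.72 and -0.72 in scion bud, so that scion bud array 1 was above scion leaf arrays 1 and 3. Its difference of 1.02 (SE 1.10, adjusted p = 0.521) was the smallest of all 193. The rootstock arrays of RAP2.6 read 2.49, 1.12 and 0.72 in leaf and -2.74, -2.42 and -2.36 in bud. MEE3 (at2g21650), a small MYB-like protein, read 0.96, 2.49 and -1.15 and -0.84, -0.76 and -0.01, with scion leaf array 3 the lowest of the 6, and had 1.31 (SE 0.88, adjusted p = 0.314).

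**Figure D5:**
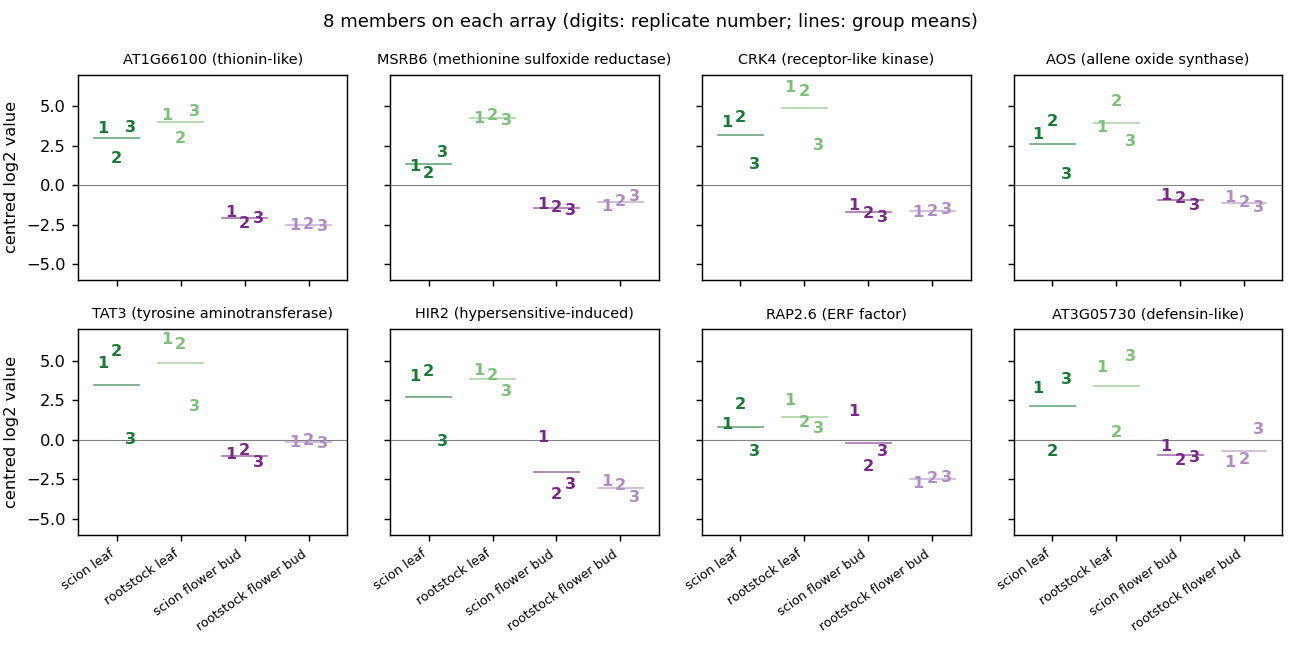
Centred log2 value (y axis) of 8 members on each of the 12 arrays, grouped on the x axis, with digits for the replicate number and lines for group means. Array 3 is at or above the other scion leaves in at1g66100, MSRB6 and at3g05730 and is the low scion leaf in CRK4, AOS, TAT3, HIR2 and RAP2.6.

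The other 61 single genes had no function group. Their median scion difference was 3.02, and 33 were called higher. The gene at3g51660, a tautomerase-like protein, read 3.63, 4.08 and 0.73 on the scion leaf arrays and -0.73, -2.17 and -2.45 on the scion bud arrays, without overlap, and was higher by 4.59 (SE 0.95, adjusted p = 0.0197). For at1g64360 the scion leaf arrays read 4.53, 5.62 and -0.03 and the scion bud arrays 0.03, -2.79 and -2.12. Scion leaf array 3 was at the midpoint, and the difference of 5.002 (SE 1.56, adjusted p = 0.0643) was not called. Its neighbour in locus number, at1g64370, had 2.52 (SE 0.98, adjusted p = 0.113). SAG21 (at4g02380), a late embryogenesis protein of senescing leaves, read 1.59, 1.97 and -1.16 in leaf and 1.16, -2.86 and -1.26 in bud, and had 1.79 (SE 1.24, adjusted p = 0.326).

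Scion bud array 1 was furthest above the other scion buds in some of these genes. For at1g72060 it read 0.41, -4.01 and -2.27 on arrays 1, 2 and 3, for at2g39400 0.29, -3.33 and -1.98, and for at1g76960 2.63, -0.70 and -1.06. The difference of at1g76960 was 2.52 (SE 1.76, adjusted p = 0.331), and its scion leaf arrays read 4.35, 4.92 and -0.85. In this gene scion bud array 1 lay between the high and the low leaf arrays. Members with a low spread were found among the smallest differences too. The transporter-like at3g23550 read 1.13, 1.31 and 0.25 in scion leaf and -0.40, -0.25 and -0.30 in scion bud, and was higher by 1.21 (SE 0.29, adjusted p = 0.0292), although its rootstock leaf arrays stood at 3.82, 4.33 and 2.57. BGLU33 (at2g32860), a glucosidase, read 2.28, -0.02 and 2.15 in scion leaf, where array 2 was the low one, and 0.02, -0.42 and -0.10 in scion bud, and had 1.64 (SE 0.62, adjusted p = 0.105). Small differences that were not called were present in at1g22690, at1g73480, at1g13990 and at2g29340, with 1.83, 1.75, 1.75 and 1.90.

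At the other end of the rule, at1g23130 had a rootstock difference of 6.32 and was higher in scion leaf by 3.61 (SE 0.92, adjusted p = 0.0362). For at2g18690 the scion leaf arrays read 5.67, 5.37 and 0.19 and the scion bud arrays -0.19, -0.39 and -0.26, with a difference of 4.03 (SE 1.44, adjusted p = 0.0917). For at1g13470 they read 4.67, 4.27 and -0.17 and 0.17, -0.46 and -0.58, with 3.21 (SE 1.27, adjusted p = 0.116). In both genes scion leaf array 3 was far below the other scion leaves and close to the scion buds. It stood above every scion bud array in at2g18690 and below scion bud array 1 in at1g13470.

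The 62 members without a single gene name were described by their counts. Of these, 37 were called higher, and their median scion difference was 3.55, beside 65 of 131 and 3.19 for the single genes. Among the single genes, 45 of the 85 named by the annotation and 20 of the 46 named only by tables of the study were called. The second share comes from genes that the study chose on these samples.

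A smaller set of members was level across the scion leaf arrays. In 34 members scion leaf array 3 lay within 1 log2 unit of the mean of the other scion leaves, 22 of them single genes, and 32 of the 34 were called higher. In 14 members array 3 was at or above that mean. Of the 116 members with array 3 at least 2 units below, 44 were called. These counts describe the spread, which enters the test itself.

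Scion and rootstock were set side by side without a test, since the choice of members on the rootstock raises its leaf values and lowers its bud values. The scion minus rootstock difference of the members had a median of -0.54 in leaf, below 0 in 154 members, and of 0.59 in flower bud, above 0 in 155. Over all probe sets the medians were -0.01 and -0.04. Scion bud array 1 was the highest of all 6 flower bud arrays in 162 members, and scion leaf array 3 the lowest of all 6 leaf arrays in 152. Shares over all probe sets were not counted for the 162 and the 152.

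Few genes of 4 photosynthesis lists could be looked up, since only 20 of their 130 entries were paired with a probe set under a single gene name, and none of these 20 was a member. The 62 members with no gene name or several could not be checked against the lists. Of 58 nuclear genes for light harvesting and electron transport, 8 were looked up, with scion differences from -0.70 to 1.06, and 2 were called higher, namely PSAN and ATPC1. For carbon fixation 4 of 23 were looked up, from 0.90 to 1.55, and 3 were called higher. Photorespiration, with 3 of 20 looked up, gave 2 called higher, from 0.69 to 1.33, and chlorophyll and carotenoid synthesis, with 5 of 29, gave 1, from 0.63 to 1.61. The largest scion difference among these 20 genes, 1.61 for ZEP, an enzyme of carotenoid synthesis, lay below the member median of 3.28. By list medians scion leaf array 3 was not low, with a gap of 0.19 for light harvesting and 0.19 for carbon fixation. The gap was 0.67 for photorespiration and 0.82 for chlorophyll and carotenoids, against -2.36 for the members. In ZEP, however, array 3 was the low scion leaf, with 0.70, 1.08 and 0.13 on arrays 1, 2 and 3. Array 3 was also the lowest scion leaf in PSAE1 and CP12-2.

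Other lists without members varied in direction. Scion differences ran from -1.09 to 0.46 in 4 circadian clock genes, from -1.68 to 0.39 in 3 nitrogen and sulfur genes and from -0.64 to 1.12 in 4 antioxidant genes. They ran from -0.39 to 1.85 in 4 cold and drought genes and from 0.50 to 2.63 in 2 senescence genes. In starch and sugar metabolism 2 of 5 genes were called higher, the sucrose transporters SUC2 and SWEET11, with 1.98 (SE 0.44) and 2.08 (SE 0.57). Of 8 stomata and trichome genes 1 was called higher and 1 lower.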

How the data were processed

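Arabidopsis thaliana RNA from 12 samples had been hybridised to Affymetrix ATH1 arrays, 3 each of scion leaf, scion flower bud, rootstock leaf and rootstock flower bud. The deposited log2 values were made by the authors with RMA, and each probe set has its median over the 12 arrays at 0, a step not given in the sources used here. Such values give differences and no levels, and arrays have no depth, so their number limits the precision.

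The 64 control probe sets were left out and 22746 were tested. The 6 scion arrays were fitted with limma 3.58.1 in R 4.3.3 (lmFit and eBayes, two-sided), with Benjamini-Hochberg adjustment over all probe sets and called where the difference reached 2-fold with an adjusted p not above 0.05. The test was run on simulated data with independent noise for each probe set and array. It called 13 of 50 changes of 1 log2 unit, 34 of 50 of 2 units, 41 of 50 of 3 units and 49 of 50 of 4 units, with 3 false calls. The simulation held no shift of many members together on 1 array, so it cannot show how the test behaves there. Rootstock values chose the members and were not tested.

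Members and gene lists were chosen with earlier results of these data known. Genes were named by a rule on size, spread and list membership (46 genes), and a further 40 as examples of function groups after their values were seen. Columns of the authors' own fold changes and p-values were not used. Promoters and protein sequences were not analysed here. Alternatives were another fit, weights, scaling, thresholds and member rules, and each scion array left out in turn.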

Additional observations from a re-analysis of the deposited data

How the results depend on the processing

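The direction of the members did not turn under any alternative, and 0 members were called lower under each of them. The count of members called higher, 102 of 193 (1321 of all probe sets), depended on the spread that enters the test. With each scion array left out in turn it lay between 30 and 180 (543 to 2413 of all probe sets) and the member median between 2.73 and 4.08. The 30 came without scion leaf array 1, 39 without scion flower bud array 2, 37 without scion flower bud array 3 and 180 without scion leaf array 3. A fit over all 12 arrays, which takes part of its spread from the arrays that chose the members and takes all arrays as independent, called 154. Array weights called 192 (2674 of all probe sets), but their estimate stopped before it converged and gave scion leaf array 1 a weight of 77.4, so this count is not relied on. A one-way analysis of variance, the kind of test the methods name, called 28 (566 of all probe sets) when run here on scion leaf against scion flower bud. The study itself reported scion against rootstock differences. Without a fold threshold 2024 of all probe sets were higher, and at 4-fold 368. Shorter member lists gave 59 of the first 100 and 65 of the 131 single genes. Members chosen without rootstock leaf array 3 gave 85 of 199 called. Of 1204 alternative values of the 86 named genes, 0 reversed, 910 kept their call, 138 gained one and 156 lost one, 104 of the losses with an array left out.

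Same-numbered scion leaf and scion flower bud arrays deviated from their group means with correlations of 0.263, -0.284 and 0.338, so the numbers are not shown to pair leaf with bud in the comparison tested. Same-numbered scion and rootstock leaf arrays deviated together, with correlations of 0.342, 0.714 and 0.816. With the replicate number as a block, 87 members were called higher (1068 of all probe sets), 82 of them also called without it. The planned search for promoter motifs was not run. With 3 arrays a group and centred values, neither levels nor dim probe sets can be read.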
